A study of Mus musculus with 8 samples.

Results

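The transcripts of 8 genes that make or read methylation of lysine 9 on histone H3 (H3K9) were followed in preimplantation mouse embryos in which Smarca5 was knocked down (KD), and in a control group labelled NC. Smarca5, called Snf2h in the sample titles, encodes an ISWI-family ATPase that slides and spaces nucleosomes. The 8 genes were chosen by symbol, without a rule on their values but with earlier results of these data known. They were the HP1 genes Cbx1, Cbx3 and Cbx5, and the H3K9 methyltransferase genes Suv39h1, Suv39h2, Setdb1, Ehmt1 and Ehmt2. All 8 had a value above 0 in every library, among 19485 genes listed for morulae and 20348 for blastocysts (21517 in either). All 8 passed the filter on low values.

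Polyadenylated RNA came from pools of 20 whole embryos at the morula stage, when the cells have compacted and no cavity has formed, and at the blastocyst stage, when an outer trophectoderm and an inner cell mass surround a cavity. Each stage had 2 KD and 2 NC libraries, 8 in all. The series gives embryonic days E3.75 and E4.25 without tying them to a stage. How the knockdown was made, what NC embryos received, and the strain are not stated in the labels. A pool of whole embryos averages over embryos and lineages, so fewer cells of a type and less RNA per cell cannot be told apart. Nothing states that the libraries of a group were from different litters or days, so the p-values reflect library-to-library spread only, and that spread may be technical. The test used also draws the spread of each gene toward that of genes of like level, so no error rests on its own libraries alone.

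Heterochromatin marked by H3K9 methylation is built by writers and readers that recruit each other. SUV39H1 and SUV39H2 trimethylate H3K9 at pericentric repeats, SETDB1 is brought to endogenous retroviruses and imprinted regions by KRAB zinc finger proteins through TRIM28, and EHMT1 (GLP) and EHMT2 (G9a) form a heterodimer that mainly mono- and dimethylates H3K9. HP1 proteins bind the methylated tail with their chromodomain and dimerise through a chromoshadow domain, which also docks partner proteins. In mice, Setdb1 is needed around implantation, and in early embryos heterochromatin is reorganised as pericentric clusters form.

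The HP1 genes are close relatives, and the sequences below show why their values can be read apart. The stretches are 120 bases of coding sequence from within the chromodomain, on the sense strand, taken from GENCODE M21 transcripts on mm10. They span coding bases 64 to 183 of Cbx1 (HP1 beta, chromosome 11), 91 to 210 of Cbx3 (HP1 gamma, chromosome 6) and 61 to 180 of Cbx5 (HP1 alpha, chromosome 15), and capitals mark positions where the 3 genes do not all share a base.
Cbx1: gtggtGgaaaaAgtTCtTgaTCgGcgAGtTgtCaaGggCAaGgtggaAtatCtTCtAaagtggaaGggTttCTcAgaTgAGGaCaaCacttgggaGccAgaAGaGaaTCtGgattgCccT
Cbx3: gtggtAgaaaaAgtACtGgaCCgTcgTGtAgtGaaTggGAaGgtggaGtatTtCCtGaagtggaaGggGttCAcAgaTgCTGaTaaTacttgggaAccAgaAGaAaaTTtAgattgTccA
Cbx5: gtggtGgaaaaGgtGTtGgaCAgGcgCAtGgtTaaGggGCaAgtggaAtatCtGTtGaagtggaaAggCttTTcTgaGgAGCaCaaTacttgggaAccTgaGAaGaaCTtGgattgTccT

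In this stretch 42 of 120 positions differed among the 3 genes. Cbx1 and Cbx3 differed at 26 bases, Cbx1 and Cbx5 at 30, and Cbx3 and Cbx5 at 34. Over the aligned coding sequence Cbx1 was 72.2% identical to Cbx3 and 72.3% to Cbx5, and Cbx3 was 72.6% identical to Cbx5. The longest run of bases that any 2 HP1 genes shared in their transcripts was 21, against reads of 150 bases. The methyltransferase pairs were further apart, at 64.7% for Suv39h1 with Suv39h2 and 65.3% for Ehmt1 with Ehmt2, with longest shared coding runs of 26 and 20 bases. Copies elsewhere in the genome mattered more for Cbx3: 23 annotated loci were at least 85% identical over at least 50% of its coding sequence, 3 of them listed in morulae and 6 in blastocysts. Their summed value was at most 2.65% of that of Cbx3 in any morula library and 1.22% in any blastocyst library. Cbx3-ps6 and Cbx3-ps7 were 99.8% and 99.6% identical over 100% of the coding sequence, and reads of 150 bases may not tell them from Cbx3. The listed values therefore do not bound the reads that Cbx3 and its copies share. Cbx1 and Cbx5 had 1 such locus each, neither with a listed value, and the methyltransferase genes had 0.

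A pair of the HP1 genes start back to back with genes for abundant RNA-binding proteins. Cbx3 starts 466 bases from Hnrnpa2b1 and Cbx5 starts 616 bases from Hnrnpa1, each pair pointing away from the other. The 250 bases upstream of Cbx5 (GRCm38.p6, the mm10 assembly, chr15:103239853-103240102, minus strand) lie between Cbx5 and Hnrnpa1, and the 250 bases upstream of Hnrnpa2b1 (chr6:51469895-51470144, minus strand) lie between it and Cbx3. They are shown, from RefSeq, because the values of both genes of each pair are compared further on. Capitals mark GGGCGG (the GC box core) or CCAAT on either strand.
Cbx5: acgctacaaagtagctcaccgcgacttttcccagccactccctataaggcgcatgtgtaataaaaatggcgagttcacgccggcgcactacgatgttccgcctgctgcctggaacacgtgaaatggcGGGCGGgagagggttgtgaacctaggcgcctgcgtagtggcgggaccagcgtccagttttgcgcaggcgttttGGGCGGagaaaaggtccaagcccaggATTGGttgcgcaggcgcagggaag
Hnrnpa2b1: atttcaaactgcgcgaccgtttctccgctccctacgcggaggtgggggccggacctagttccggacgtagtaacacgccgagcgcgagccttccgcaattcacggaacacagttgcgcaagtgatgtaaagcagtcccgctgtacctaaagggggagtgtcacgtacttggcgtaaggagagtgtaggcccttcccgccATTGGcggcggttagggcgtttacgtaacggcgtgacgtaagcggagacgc

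The Cbx5 window held GGGCGG at 2 places, CCAAT at 1 and 22 CpG dinucleotides, and the Hnrnpa2b1 window held CCAAT at 1 place and 29 CpG dinucleotides. Both motifs were searched on both strands, and no matches overlapped. Across the 32851 RefSeq windows of the same length, GGGCGG was found in 32.7%, CCAAT in 33.8% and TATAAA in 12.4%. The 8 genes had 12 such windows, with 7 to 36 CpG dinucleotides each, against a median of 6 over all windows (quartiles 2 and 16). GGGCGG was in a window of 8 of the 8 genes, CCAAT in a window of 3 (Setdb1, Cbx5 and Suv39h1) and TATAAA in none. Each Cbx3 window lies downstream of the GENCODE start of Cbx3 (51470360), from which the distance of 466 bases was taken. The Cbx3 match is therefore not between the back-to-back starts. A gene was counted if any of its windows matched, while the shares over all windows are per window, so the 2 are unlike measures. The windows of the 8 genes held 49.6% to 84% G or C, against a median of 52.4% over all windows. A match describes the letters of a window and is no evidence of binding.

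The targeted gene was checked in each library. Normalized abundance, the authors' scaled value per gene, was 501 and 470 for Smarca5 (ENSMUSG00000031715, chromosome 8, 80698507 to 80739497) in KD morulae, against 9678 and 9760 in NC morulae. In blastocysts it was 906 and 855 in KD, against 7000 and 8283 in NC. The KD libraries lay far below the NC libraries at each stage, and Smarca5 fell at both (log2 fold change -4.32, SE 0.13, adjusted p = 1.88e-04 in morulae; -3.11, SE 0.12, adjusted p = 5.93e-04 in blastocysts; limma on log2(value + 1), Benjamini-Hochberg over all tested genes). Without limma's mean-variance trend neither passed (adjusted p = 0.111 and 0.103). Summed values of 7 trophectoderm markers, 26561 to 34715 in the 4 morula libraries and 89775 to 114103 in the 4 blastocyst libraries, were in the order of the labelled stages. Within morulae they were 29129 and 26561 in KD against 34715 and 29664 in NC, with KD below, and within blastocysts 100302 and 114103 in KD against 90341 and 89775 in NC, with KD above. The 7 did not all move alike: 2 had higher and 5 lower estimates in KD morulae, and 5 higher and 2 lower in KD blastocysts. Krt8 and Krt18 made up most of the blastocyst sum of these trophectoderm markers. Without overlap, 4 lay below in KD morulae, against 21.2% of all tested genes, and 4 above in KD blastocysts, against 24.6%. Summed values of 7 inner cell mass markers, mostly Pou5f1, overlapped in morulae and were 34213 and 36093 in KD against 37663 and 40544 in NC blastocysts. There 6 had lower and 1 a higher estimate in KD, and 5 lay below without overlap, against 24.9% of all tested genes. Limma called 0 of either list, and in blastocysts 4 of each had an unadjusted p under 0.05. Summed values of 6 primitive endoderm markers were 12488 and 10949 in KD against 9503 and 10481 in NC morulae, where Foxa2 had no listed value, and overlapped in blastocysts. Of the 4 primitive endoderm markers tested in morulae 3 had KD above NC without overlap, against 20.7% of all tested genes. The median estimate of the 4 was 1.28 on the log2 scale. Limma called 0, and 2 had an unadjusted p under 0.05. Gata6, most of the morula sum, was the one that overlapped (10941 and 9716 in KD, 9078 and 9759 in NC). Of 8 cumulus and granulosa markers, Fshr, Cyp19a1, Has2 and Ptx3 had no listed value, and the others summed to 238 and 260 in KD against 63.1 and 184 in NC morulae, and to 142 and 339 in KD against 153 and 201 in NC blastocysts. Sums of oviduct and uterine epithelium markers were 124 and 108 in KD against 97.4 and 74.3 in NC morulae, and overlapped in blastocysts, as did those of blood and oocyte markers at both stages. Most of the blood sum was Cd68. The globin gene Hbb-bs was at 0 and 40.0 in KD and 0 and 82.9 in NC blastocysts. Hba-a1 was at 2.62 and 15.8 in KD and 0 and 57.5 in NC blastocysts, also higher in the libraries numbered 2. Of the 4 oocyte markers tested in morulae 3 had KD above NC without overlap, against 20.7% of all tested genes, and limma called 0. The part of these markers in the values below was not tested.

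Among the 8 heterochromatin genes, no change between KD and NC embryos passed the test at either stage. At an adjusted p under 0.05, limma called 0 of the 8 in morulae and 0 in blastocysts, and at an unadjusted p under 0.05 also 0 and 0. The background was 0.00746% of 13404 tested genes called in morulae and 0.0879% of 13651 in blastocysts, and at the unadjusted threshold 10.4% and 17.6%, so a count of 0 among 8 is near what the whole tables give. The fold changes were small: the median size of the log2 fold change was 0.0942 in morulae and 0.137 in blastocysts, against 0.238 and 0.236 over all tested genes. The SEs of the 8 ran from 0.117 to 0.254 in morulae and from 0.0972 to 0.173 in blastocysts. Over all tested genes the median SE was 0.253 and 0.200. These medians were not matched for level or error, so they do not show that the 8 genes respond less than others. The signed median was 0.04 and -0.04. Taken over the 8 genes, the 95% intervals of the fold change reached down to 0.501 and up to 1.61 in morulae, and down to 0.605 and up to 1.38 in blastocysts. A p that misses the threshold does not show equal levels. These intervals give the range of change left possible under limma's errors, which borrow spread from other genes.

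**Figure D1:**
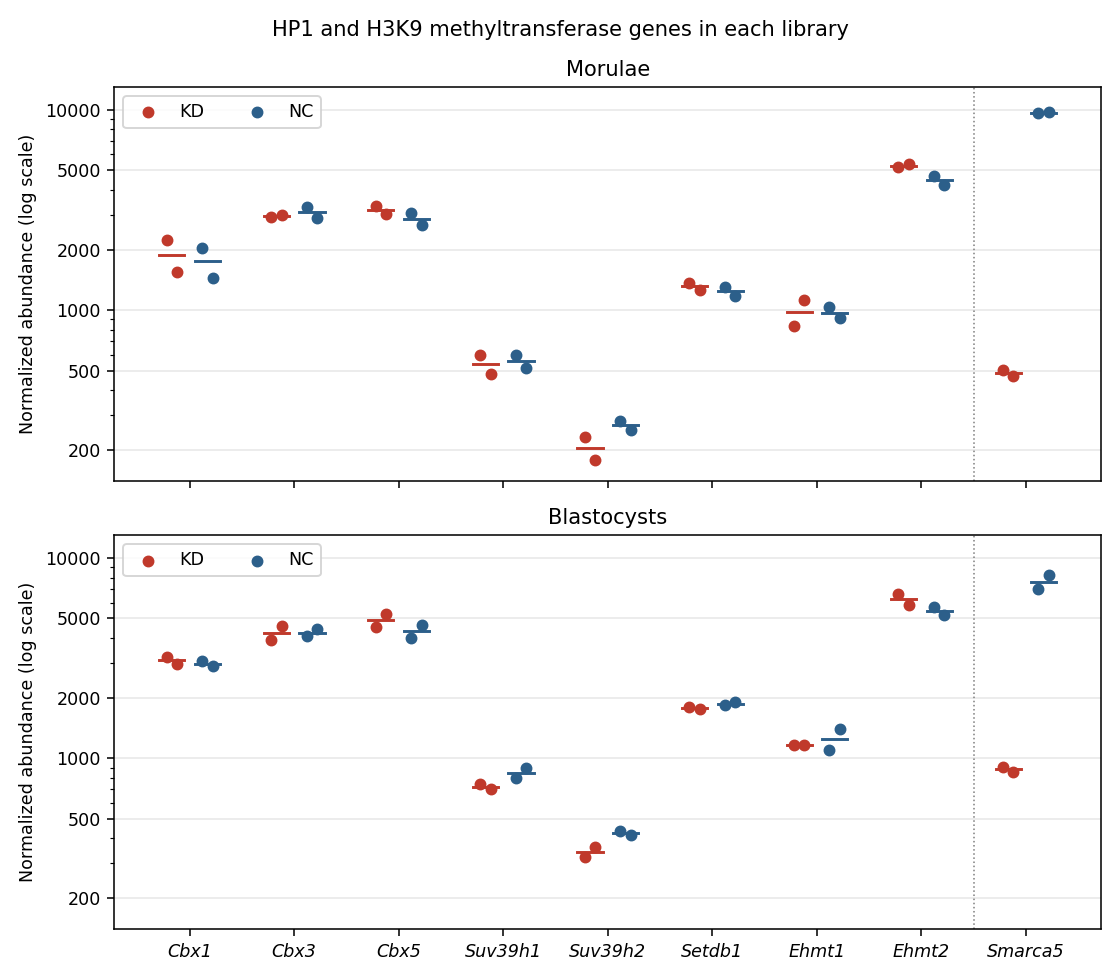
Normalized abundance (log axis) of the 8 genes and of Smarca5 in every library of morulae (top) and blastocysts (bottom), with KD left of NC; dots are libraries and bars are means of 2. KD and NC dots of the 8 genes lie close together, while Smarca5 was 501 and 470 in KD against 9678 and 9760 in NC morulae.

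The readers were examined first. Cbx1 (ENSMUSG00000018666; mm10 chromosome 11, 96789127 to 96808640, plus strand), which encodes HP1 beta, was at 2240 and 1545 in KD morulae, against 2054 and 1454 in NC morulae. The libraries numbered 1 were high and those numbered 2 low in both groups, which overlapped (fold 1.08, 95% interval 0.722 to 1.61, limma adjusted p = 0.916). In blastocysts Cbx1 was at 3217 and 2958 in KD and 3051 and 2896 in NC. These groups overlapped too and lay close together (fold 1.04, interval 0.884 to 1.22, adjusted p = 0.814).

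Cbx3 (ENSMUSG00000029836; chromosome 6, 51470360 to 51483704, plus strand) encodes HP1 gamma, the HP1 form found in euchromatin and gene bodies as well as in heterochromatin. It was at 2911 and 3002 in KD morulae, against 3294 and 2882 in NC morulae, and at 3904 and 4567 in KD blastocysts, against 4064 and 4430 in NC blastocysts. NC libraries bracketed KD in morulae and KD libraries bracketed NC in blastocysts. The fold was 0.959 in morulae (interval 0.774 to 1.19, adjusted p = 0.912) and 0.995 in blastocysts (0.830 to 1.19, adjusted p = 0.984, limma).

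Cbx5 (ENSMUSG00000009575; chromosome 15, 103191544 to 103239816, minus strand) encodes HP1 alpha, concentrated at pericentric heterochromatin. Its values were 3336 and 3034 in KD and 3056 and 2676 in NC morulae. In blastocysts they were 4529 and 5279 in KD and 4003 and 4662 in NC. KD means were above NC means at both stages with overlapping libraries (3185 ± 214 and 2866 ± 269 in morulae, 4904 ± 530 and 4332 ± 465 in blastocysts; SD, n = 2 each). The change did not pass (log2 fold change 0.15, SE 0.13, adjusted p = 0.740, and 0.18, SE 0.12, adjusted p = 0.476, limma).

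The writers of pericentric trimethylation came next. Suv39h1 (ENSMUSG00000039231; X chromosome, 8061171 to 8074760, minus strand) was at 599 and 481 in KD and 596 and 515 in NC morulae, which overlapped (limma log2 fold change -0.05, SE 0.20, adjusted p = 0.962). In blastocysts it was at 743 and 703 in KD and 796 and 890 in NC. There both NC libraries exceeded both KD libraries (fold 0.859, interval 0.686 to 1.08, adjusted p = 0.447, limma). The annotation places the antisense gene Gm14820, which had no listed value, over 767 of the 5270 exon bases of all Suv39h1 transcripts.

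Suv39h2 (ENSMUSG00000026646; chromosome 2, 3455815 to 3475031, minus strand), first described in mice as the testis-enriched SUV39H enzyme, had the lowest values of the 8 genes. It was at 232 and 178 in KD and 280 and 253 in NC morulae, and at 320 and 362 in KD and 432 and 414 in NC blastocysts. The KD libraries were the lower ones at each stage without overlap, a pattern that 9.54% of 12875 genes tested at both stages also had. Means were 205 ± 38.0 and 267 ± 18.8 in morulae and 341 ± 30.2 and 423 ± 12.4 in blastocysts (SD, n = 2 each), and neither difference passed (log2 fold change -0.39, SE 0.25, adjusted p = 0.650; -0.31, SE 0.17, adjusted p = 0.402, limma). These were the most negative estimates among the 8 genes at both stages. The gene overlaps Dclre1c, a DNA repair nuclease gene on the opposite strand named after its values were seen, in 357 of 4410 exon bases, and the labels do not say whether counting used strand. Dclre1c was also below in both KD libraries, at 393 and 518 in KD against 601 and 641 in NC morulae, and 340 and 329 in KD against 378 and 394 in NC blastocysts, and did not pass (adjusted p = 0.518 and 0.573).

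Setdb1 (ENSMUSG00000015697; chromosome 3, 95323525 to 95357202, minus strand), the enzyme of TRIM28-dependent retrovirus silencing, was at 1369 and 1263 in KD and 1313 and 1175 in NC morulae. In blastocysts it was at 1797 and 1773 in KD and 1850 and 1909 in NC. The groups overlapped in morulae, while in blastocysts the KD libraries were the lower ones by a small margin (1785 ± 16.8 and 1879 ± 42.0, SD, n = 2 each). The log2 fold changes of 0.08 (SE 0.15, adjusted p = 0.891) and -0.07 (SE 0.10, adjusted p = 0.744, limma) did not pass. Cers2, a ceramide synthase gene on the opposite strand, shares 75 exon bases with Setdb1 and was also named after its values were seen. It was at 3341 and 4186 in KD and 2787 and 3451 in NC morulae, with overlap, and at 3452 and 3790 in KD and 3114 and 3023 in NC blastocysts, with KD above where Setdb1 had KD below, and it did not pass (log2 fold change 0.27, adjusted p = 0.635; 0.24, adjusted p = 0.271).

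Ehmt1 (ENSMUSG00000036893; chromosome 2, 24789928 to 24919614, minus strand), which encodes GLP, was at 832 and 1125 in KD and 1035 and 913 in NC morulae. In blastocysts it was at 1163 and 1172 in KD and 1103 and 1409 in NC. KD libraries bracketed NC in morulae and NC libraries bracketed KD in blastocysts (fold 0.995, interval 0.718 to 1.38, adjusted p = 0.994; fold 0.936, interval 0.734 to 1.19, adjusted p = 0.778, limma).

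Ehmt2 (ENSMUSG00000013787; chromosome 17, 34898469 to 34914052, plus strand) encodes G9a, the partner that GLP needs for most dimethylation. It was at 5173 and 5359 in KD and 4695 and 4227 in NC morulae, and at 6623 and 5843 in KD and 5713 and 5188 in NC blastocysts. It was the one gene of the 8 whose KD libraries lay above NC at both stages, as for 9.41% of the genes tested at both. Means were 5266 ± 132 and 4461 ± 331 in morulae and 6233 ± 552 and 5450 ± 371 in blastocysts (SD, n = 2 each). The change did not pass (log2 fold change 0.24, SE 0.12, adjusted p = 0.549; 0.19, SE 0.10, adjusted p = 0.382, limma), and the intervals of the fold were 0.972 to 1.44 and 0.967 to 1.35.

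**Figure D2:**
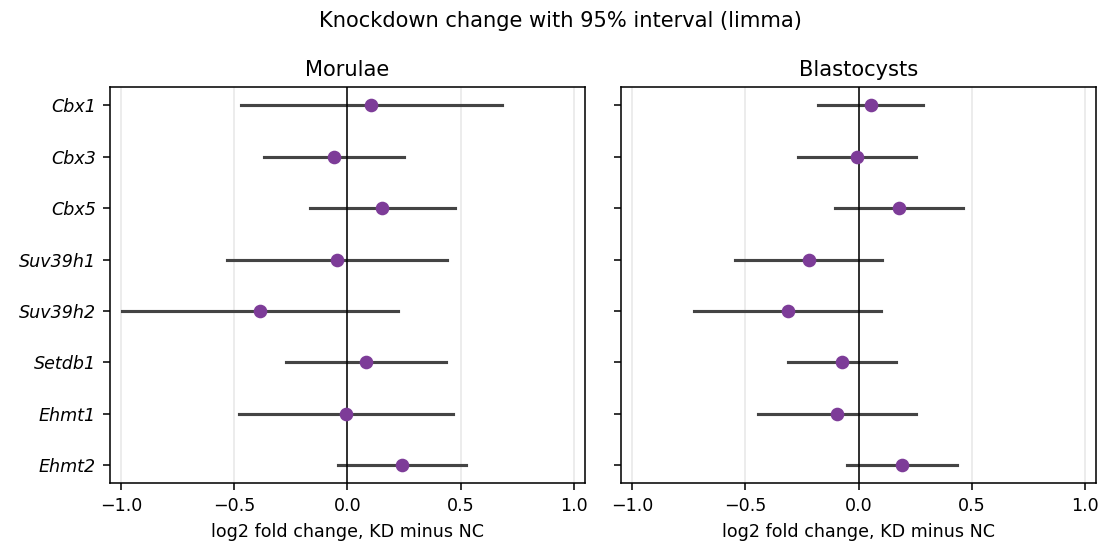
The log2 fold change of normalized abundance, KD minus NC, of each gene in morulae (left) and blastocysts (right), with limma's 95% interval as a line. Every interval includes 0; the lowest estimates are those of Suv39h2 (-0.39 and -0.31) and the highest those of Ehmt2 in both stages (0.24 and 0.19).

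The groups were apart for 2 of the 8 genes in morulae, Ehmt2 above and Suv39h2 below, and for 4 in blastocysts, with Ehmt2 above and Suv39h1, Suv39h2 and Setdb1 below. Over all tested genes 41.9% in morulae and 49.5% in blastocysts did not overlap. In morulae 20.7% had KD above and 21.2% KD below, and in blastocysts 24.6% and 24.9%. The counts of 2 and 4 of 8 are near these shares.

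No difference of the change between the stages passed the test. The log2 fold change in blastocysts minus that in morulae ran from -0.17 for Suv39h1 to 0.07 for Suv39h2, with 0 of 8 called and 0 at an unadjusted p under 0.05 (limma interaction, lowest adjusted p = 0.944), and 0% of 12875 genes were called in all. The interval of this difference was -0.71 to 0.36 for Suv39h1 and -0.59 to 0.74 for Suv39h2, while for Ehmt2 it was -0.39 to 0.30.

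Levels were set against each other per kilobase of the union of exons of coding transcripts, within a stage. The order was the same at both stages: Cbx3, Ehmt2, Cbx1, Cbx5, Setdb1, Ehmt1, Suv39h1 and Suv39h2. In morulae the mean of 4 libraries was 1439 per kilobase for Cbx3, 1173 for Ehmt2 and 750 for Cbx1, with Cbx5 at 336, Setdb1 at 275, Ehmt1 at 163, Suv39h1 at 110 and Suv39h2 at 53.5. In blastocysts it was 2020 for Cbx3, 1409 for Ehmt2, 1247 for Cbx1, 513 for Cbx5, 393 for Setdb1, 203 for Ehmt1, 158 for Suv39h1 and 86.6 for Suv39h2. The mean level of Cbx3 was 26.9 times that of Suv39h2 in morulae and 23.3 times in blastocysts. Neighbours in the order had separate ranges over the 4 libraries, except Ehmt2 and Cbx1 in blastocysts. When the longest coding transcript gave the length, Suv39h1 came above Ehmt1 at both stages and Cbx1 above Ehmt2 in blastocysts, each with overlapping ranges, and Ehmt2 and Cbx1 also overlapped in morulae.

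**Figure D3:**
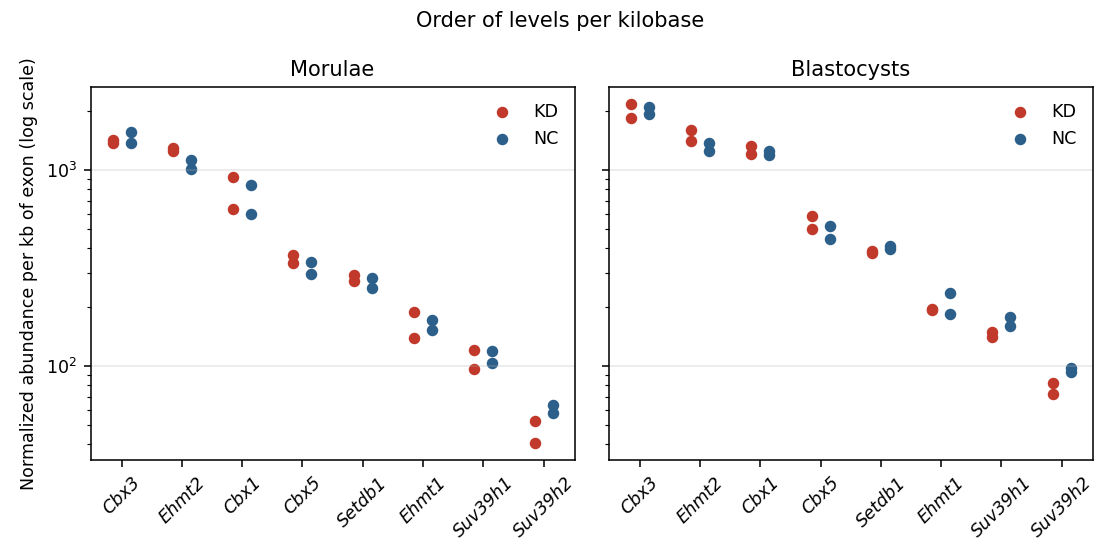
Normalized abundance per kilobase of exon (log axis) of the 8 genes in morulae (left) and blastocysts (right), each dot a library, KD left of NC. Cbx3 is highest and Suv39h2 lowest at both stages, at means of 1439 and 53.5 in morulae and 2020 and 86.6 in blastocysts.

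Within the HP1 family the shares of Cbx1 and Cbx3 overlapped between KD and NC libraries at both stages. Of the summed HP1 level per kilobase, Cbx3 made up 55.6% ± 5.49 in KD and 58.7% ± 2.50 in NC morulae, and 52.6% ± 2.99 in KD and 54.2% ± 1.42 in NC blastocysts (SD, n = 2 each). Cbx1 gave 30.4% ± 5.62 in KD and 28.5% ± 3.05 in NC morulae, and 33.3% ± 3.76 in KD and 32.9% ± 2.35 in NC blastocysts. Cbx5, the smallest part per kilobase, was at 13.8% and 14.0% in KD and 12.3% and 13.1% in NC morulae, and at 13.64% and 14.73% in KD and 12.23% and 13.55% in NC blastocysts. Both KD libraries had the larger Cbx5 share at each stage, in blastocysts by a narrow margin. The low place of Cbx5, here and in the order above, rests on its length of 9006 bases, against 2100 for Cbx3. Undivided, Cbx5 was 0.0242% and Cbx3 0.0222% of the column sum in blastocysts. The longest coding transcript of Cbx5, at 8803 bases, is also long, and which transcript the embryos used was not tested. The summed level was 2540 ± 196 in KD and 2511 ± 343 in NC morulae, and 3832 ± 207 in KD and 3727 ± 130 in NC blastocysts, within the spread of the libraries.

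Among the 5 methyltransferase genes Ehmt2 made up most of the summed level per kilobase. Its share was 67.3% and 68.4% in KD and 64.0% and 64.3% in NC morulae, and 66.6% and 63.8% in KD and 62.1% and 57.7% in NC blastocysts. KD libraries were above NC libraries at both stages. The share of Suv39h2 was 2.84% and 2.14% in KD and 3.58% and 3.62% in NC morulae, and 3.02% and 3.72% in KD and 4.42% and 4.33% in NC blastocysts, with KD below NC at both. Within the SUV39H pair, Suv39h2 was 30.4% and 29.5% in KD and 34.6% and 35.7% in NC morulae, but 32.7% and 36.8% in KD and 37.9% and 34.4% in NC blastocysts, where the groups overlapped. The summed level of the 5 genes was 1854 and 1889 in KD and 1771 and 1585 in NC morulae, with KD above, and 2400 and 2210 in KD and 2218 and 2170 in NC blastocysts, with overlap. The sum of the Ehmt genes was above in KD at both stages (1387 and 1481 in KD against 1306 and 1172 in NC morulae, 1792 and 1606 in KD against 1563 and 1487 in NC blastocysts). This sum is mostly Ehmt2, whose lowest share of it was 84.2%, in an NC blastocyst library. Ehmt1 overlapped at both stages (fold 0.995 in morulae and 0.936 in blastocysts, limma). The sums of the 5 genes and of the Ehmt genes therefore largely restate Ehmt2, and do not show that both Ehmt genes were higher. The sum of the Suv39h genes was 173 and 137 in KD and 183 and 161 in NC morulae, with overlap, and 222 and 224 in KD and 258 and 273 in NC blastocysts, with KD below. The shares and sums are given as descriptions and were not tested, and a share rises whenever another member of the sum falls.

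**Figure D4:**
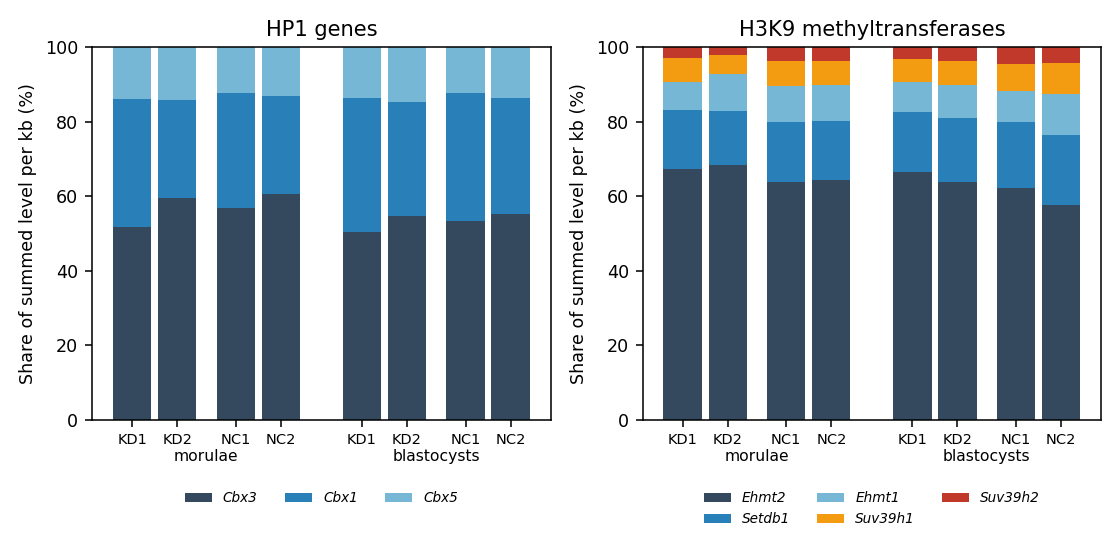
Share of each gene in the summed level per kilobase (%), 1 bar per library, for the HP1 genes (left) and the H3K9 methyltransferase genes (right), with KD bars left of NC bars at each stage. Cbx3 gave 50.4% to 60.5% of the HP1 sum, and Ehmt2 gave 57.7% to 68.4% of the methyltransferase sum.

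Between the stages, levels were set side by side as a share of the column sum, because the 2 tables were treated as scaled apart, and no test was run. All 4 blastocyst libraries were above all 4 morula libraries for 6 of the 8 genes, as they were for 22.9% of 12875 genes. Cbx1 averaged 0.0159% of the sum in blastocysts and 0.0105% in morulae, a ratio of 1.52. Suv39h2 (0.00200% in blastocysts and 0.00135% in morulae) had a ratio of 1.48, Cbx5 (0.0242% in blastocysts and 0.0174% in morulae) 1.39 and Setdb1 (0.00961% in blastocysts and 0.00735% in morulae) 1.31. Cbx3 and Suv39h1 had ratios of 1.28 and 1.31. The libraries overlapped for both Ehmt genes, with ratios of 1.13 for Ehmt1 and 1.10 for Ehmt2. The median ratio was 1.31 for the 8 genes and 1.06 for all 12875, and a share of the sum moves with the makeup of the whole library.

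The genes back to back with members were then compared, chosen for position and after their values were seen. Hnrnpa2b1 was at 14551 and 10483 in KD and 11569 and 10712 in NC morulae, and at 12362 and 11368 in KD and 12630 and 11798 in NC blastocysts. Like Cbx3, it overlapped at both stages (log2 fold change 0.15, adjusted p = 0.808; -0.04, adjusted p = 0.837, limma). Hnrnpa1 was at 16897 and 12815 in KD and 18747 and 14364 in NC morulae, overlapping, and at 17253 and 18213 in KD and 19217 and 19959 in NC blastocysts, where KD lay below. Its estimates of -0.16 and -0.14 (adjusted p = 0.816 and 0.380) had the sign opposite to those of Cbx5, and neither gene passed. C2, a complement gene that starts 204 bases from Ehmt2, was at 624 and 1096 in KD and 467 and 594 in NC morulae, and at 1271 and 891 in KD and 680 and 300 in NC blastocysts. Both KD libraries lay above both NC libraries for C2 as for Ehmt2 at each stage, and C2 did not pass (log2 fold change 0.65, adjusted p = 0.518; 1.24, adjusted p = 0.178).

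In the wider pathway, 84 genes in 6 lists were examined, and none passed. Limma called 0 of 79 tested in morulae and 0 of 76 in blastocysts. At an unadjusted p under 0.05 there were 5 in morulae and 21 in blastocysts, or 6.33% and 27.6%, against 10.4% and 17.6% of all tested genes. The groups were apart for 38% of them in morulae (6 above, 24 below) and 59.2% in blastocysts (17 above, 28 below), against 41.9% and 49.5% of all genes.

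Partners of the methyltransferases and other H3K9 writers had 6 higher and 8 lower in KD morulae and 3 higher and 10 lower in KD blastocysts, with median log2 fold changes of -0.09 and -0.16. Max, the MYC-family dimer partner that also serves the E2F6 and MGA repressor complex with the EHMT enzymes, was at 1665 and 1349 in KD and 2065 and 1868 in NC blastocysts, without overlap (log2 fold change -0.39, adjusted p = 0.220). Prdm2 (-0.31) and the chromodomain corepressor gene Cdyl (-0.35) came next in blastocysts. Mga was at 2614 and 2830 in KD and 3397 and 3016 in NC morulae (-0.23, adjusted p = 0.589), and Atf7ip2, related to the SETDB1 cofactor ATF7IP, had an estimate of -0.38. None of these passed.

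The KRAB zinc finger and HUSH list, through which SETDB1 is brought to its targets, had 11 genes tested at both stages, 3 higher and 8 lower in KD morulae and 6 higher and 5 lower in KD blastocysts. Zfp57, the zinc finger protein that guards imprinted regions, was at 965 and 1085 in KD and 1577 and 1782 in NC blastocysts. The KD libraries were well below, and the estimate of -0.71 (SE 0.13, limma adjusted p = 0.0917) did not pass. In morulae Zfp57 was at 422 and 342 in KD and 417 and 272 in NC, with overlap. Mphosph8, the HUSH subunit that reads H3K9 methylation, was at 2263 and 1892 in KD and 1379 and 1559 in NC blastocysts (0.50, adjusted p = 0.147). Rex2, a zinc finger gene with close relatives among which reads may be split, had an estimate of -1.08 (adjusted p = 0.124).

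Among 19 genes of HP1 binding and heterochromatin upkeep, 6 were higher and 13 lower in KD morulae, and 8 higher and 11 lower in KD blastocysts. Uhrf1, which links H3K9 methylation with maintenance of DNA methylation, was at 4819 and 3976 in KD and 6563 and 6319 in NC blastocysts. This was the smallest p of the list, with an estimate of -0.56 (SE 0.11, limma adjusted p = 0.101), and in morulae Uhrf1 was at 3329 and 3100 in KD against 3088 and 2531 in NC. Smchd1, a factor of X inactivation, was at 720 and 729 in KD and 1109 and 1021 in NC blastocysts (-0.55, adjusted p = 0.120), and Atrx, a chaperone of H3.3 at heterochromatin, had an estimate of -0.45 (adjusted p = 0.165). In morulae the smallest p values belonged to the HP1-binding gene Pogz (-0.32), Orc1 (-0.41) and the H4K20 methyltransferase gene Kmt5c (0.36), with adjusted p between 0.511 and 0.592.

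H3K9 demethylase genes, the erasers, had 3 higher and 7 lower of 10 tested in KD morulae and 5 higher and 5 lower in KD blastocysts. Phf2 was at 133 and 151 in KD and 302 and 353 in NC blastocysts. KD libraries were far below NC there (-1.20, SE 0.22, limma adjusted p = 0.0944), but in morulae Phf2 was at 136 and 41.2 in KD and 203 and 111 in NC, with overlap. Kdm7a was at 704 and 952 in KD and 1284 and 1413 in NC morulae (-0.72, adjusted p = 0.376). Kdm1a (-0.29) and Kdm3b (-0.23) followed in blastocysts, and none passed.

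Germline genes known to be silenced through H3K9 methylation in mouse embryonic stem cells had 6 higher and 8 lower of 14 tested in KD morulae and 7 higher and 5 lower of 12 in KD blastocysts. Their median log2 fold changes were -0.24 and 0.0019. Ddx4, a germ cell RNA helicase, was at 180 and 237 in KD and 55.5 and 112 in NC morulae (1.38, limma adjusted p = 0.402), and Sycp3, a synaptonemal complex gene, was at 208 and 280 in KD and 404 and 451 in NC morulae (-0.82, adjusted p = 0.402). These had opposite signs, and Tuba3a (1.17) was next. In blastocysts the cohesin gene Smc1b was at 14.9 and 15.6 in KD and 38.0 and 45.4 in NC (-1.39, adjusted p = 0.220), Wfdc15a had an estimate of -1.11, and Magea2, 1 of a family of near-identical genes whose reads may be split, was listed at 0 and 1.93 in KD and 35.6 and 72.1 in NC (adjusted p = 0.0917).

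Partners of SMARCA5 in its complexes had 4 higher and 7 lower of 11 tested in KD morulae and 5 higher and 6 lower in KD blastocysts. Bptf, of the NURF complex, was at 5377 and 5302 in KD and 4360 and 4531 in NC blastocysts (0.26, limma adjusted p = 0.188), and Rbbp4 (-0.15) and Rsf1 (-0.16) followed. Pole3 (-0.27), Cecr2 (0.24) and Rbbp4 (-0.15) led in morulae.

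**Figure D5:**
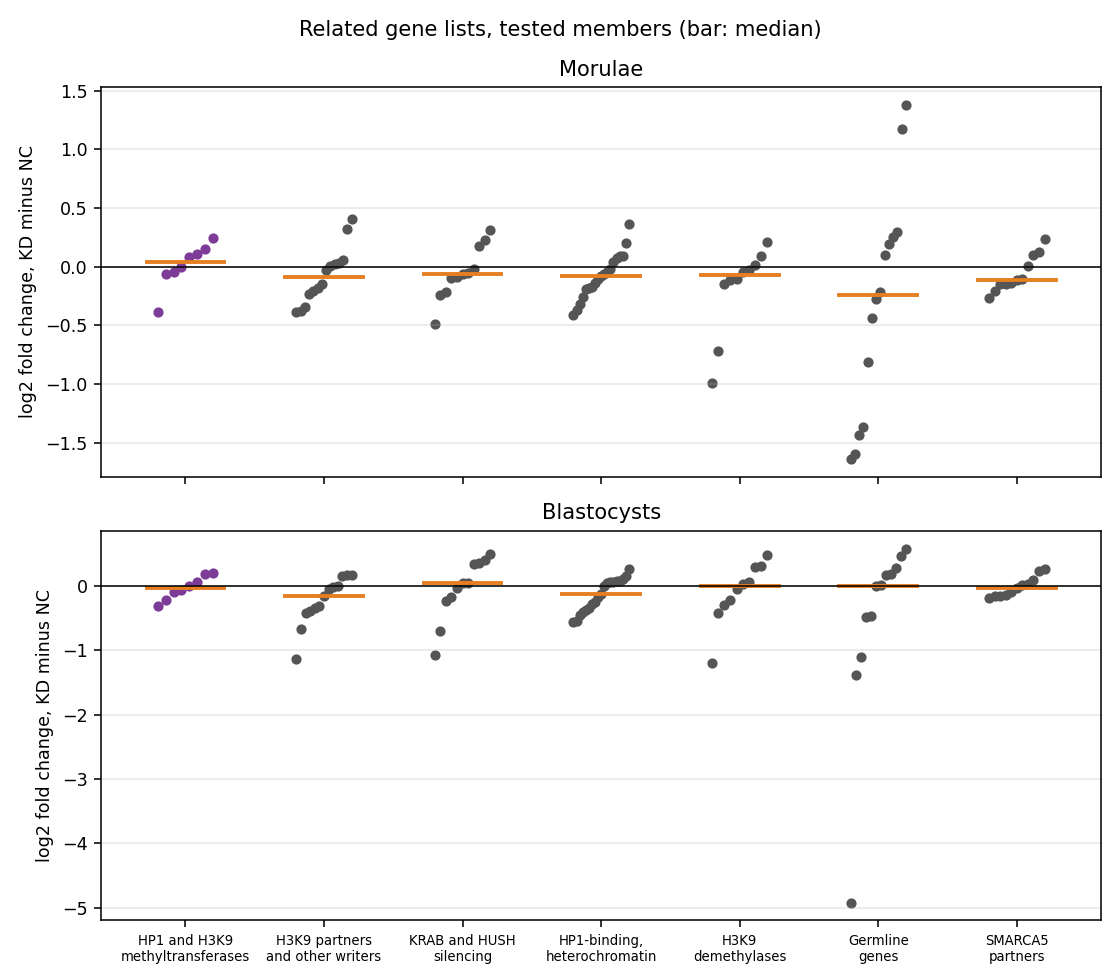
The log2 fold change, KD minus NC, of each tested gene of the 8 heterochromatin genes (purple) and of 6 related lists (grey), in morulae (top) and blastocysts (bottom), in rising order within a list; orange bars are medians. The 8 genes run from -0.39 to 0.24 in morulae and from -0.31 to 0.19 in blastocysts; the lowest point in blastocysts is Magea2.

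Across the 8 libraries, centred within each stage, each gene was matched with the 11704 coding genes tested at both stages. The highest Pearson r was 0.991 for Cbx1 with Pde8a, 0.986 for Cbx3 with Ppp1r9a, 0.986 for Cbx5 with Eef1a1 and 0.976 for Suv39h1 with Tomm34. It was 0.989 for Suv39h2 with Mrpl24, 0.987 for Setdb1 with Glo1, 0.965 for Ehmt1 with Eea1 and 0.993 for Ehmt2 with Calr4. Next in order were Slc25a1, Cep83, Nat1, Srsf4, Ndufb5, Mtg1, Notch4 and Git1, for the members in the same sequence. Among the 8 genes themselves, r was highest for Suv39h1 with Setdb1 (0.772) and lowest for Suv39h2 with Ehmt2 (-0.762). These values describe 8 points that share libraries and scaling, picked as the highest of many, and carry no test.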

How the data were processed

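Each stage has 1 table of gene signal (normalized abundance), scaled by the authors before they deposited it. Salmon 0.14.1, DESeq2 and build mm10 are named, per the submitters' processing notes, without their roles. Per the labels, RNA was extracted with PicoPure reagents from pools of 20 embryos, selected on oligo(dT), amplified over 12 to 15 cycles and sequenced as pairs of 150 bases.

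Columns sum to 17151880 to 17823304 (morulae) and 18896774 to 19247880 (blastocysts), and the tables were treated as scaled apart. Genes seen in 1 library had values at whole multiples of a step in 94.9% to 100% of cases (tolerance 0.01), which gave estimated depths of 16177238 to 18568761 reads in morulae and 13958294 to 23304921 in blastocysts. Genes found in all libraries lay on whole multiples in 6.04% to 26.6%, so whole reads were not recovered, no count test was run, and errors are the spread between libraries.

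Groups follow the sample titles. Symbols came from a gene name table (98.9% of IDs matched) and coordinates from GENCODE M21. Genes averaging at least 10 over a table's 4 libraries entered limma 3.58.1 (R 4.3.3) as log2(value + 1) (mean-variance trend, Benjamini-Hochberg, threshold 0.05), KD minus NC per stage, and the stage difference in a fit of 8 libraries. Fold changes are on this scale, which understates changes of low genes. Alternatives were a pseudocount of 10, no filter, no trend, median-ratio scaling, quantile normalization, the replicate number as a block and leaving out each library. The replicate numbers do not pair libraries by any statement in the labels, so the block stands in the closing section alone.

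The 8 genes, the lists and the markers were chosen with earlier results of these data known. Named genes are the 8, Smarca5, per list and stage up to 3 genes with the smallest p, and the 2 most similar genes of each member. Genes next to or overlapping a member were named after their values were seen. Motifs were searched in the 250 bases before RefSeq starts.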

Additional observations from a re-analysis of the deposited data

How the results depend on the processing

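None of the 8 genes was called at either stage under any alternative run. Leaving out the filter or the trend, or adding the block, cannot move a fold change of these genes and bears on its error alone. Of the alternatives that can move it, the pseudocount and median-ratio scaling turned no sign. Quantile normalization turned Ehmt1 in morulae to 0.037 and the stage difference of Cbx5 to -0.0063. Smarca5 kept its direction but did not pass without the trend (-4.32, adjusted p = 0.111; -3.11, adjusted p = 0.103). Over all genes, calls in morulae numbered 1, against 0 without the trend and 892 with the replicate number as a block. Calls in blastocysts numbered 12, against 0 without the trend, 27 without the filter, 1208 with the block and 1 to 3 with a library left out. Calls for the stage difference numbered 0, against 1 with the block and 0 to 1 with a library left out.

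Deviations of same-numbered libraries correlated at 0.297 in morulae and 0.146 in blastocysts, with 2 pairs each. With the block, the lowest limma adjusted p among the 8 genes was that of Ehmt2 (0.172 in morulae, 0.110 in blastocysts). Of 79 related genes tested in morulae 3 were called (Kdm7a, Ddx4 and Sycp3), against 892 of 13404 over all genes. In blastocysts 11 of 76 were called, 1 higher and 10 lower, Uhrf1, Zfp57 and Phf2 having the smallest p. Over all genes the block called 1208 of 13651 there, 633 higher and 575 lower.

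With a library left out, an arm of 1 is assumed to vary like the other. Suv39h2 (-0.58 to -0.20 in morulae, -0.40 to -0.22 in blastocysts), Ehmt2 (0.17 to 0.32, 0.10 to 0.28) and Cbx5 (0.058 to 0.25, 0.068 to 0.29) kept their direction at both stages, and Suv39h1 in blastocysts. Setdb1 kept its sign within each stage, but reached almost 0 in morulae (0.0017 to 0.16) and had the opposite sign in blastocysts (-0.097 to -0.051). The others spanned 0: Cbx1 (-0.16 to 0.37; -0.0071 to 0.11), Cbx3 (-0.16 to 0.036; -0.12 to 0.11), Ehmt1 (-0.22 to 0.21; -0.27 to 0.081) and Suv39h1 in morulae (-0.20 to 0.11). Stage differences spanned 0 for Cbx1 (-0.26 to 0.16), Cbx3 (-0.11 to 0.21), Cbx5 (-0.18 to 0.23), Suv39h1 (-0.36 to 0.012), Suv39h2 (-0.20 to 0.35), Ehmt1 (-0.35 to 0.18) and Ehmt2 (-0.16 to 0.067), but not for Setdb1. Depth was estimated and sets no interval for single values.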

Other observations

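The Cbx1 locus holds a processed pseudogene, Gm11517, on the opposite strand, with 0 bases shared with Cbx1 exons, noticed after its values were seen. In morulae Gm11517 was at 1078 and 1852 in KD libraries, against 865 and 1571 in NC libraries, so it was low in the libraries numbered 1, where Cbx1 was high (2240 in KD and 2054 in NC), and high in those numbered 2, where Cbx1 was low (1545 in KD and 1454 in NC). In blastocysts it was at 207 and 82.1 in KD, against 158 and 81.3 in NC, and there it was high in the libraries numbered 1, where Cbx1 was also the higher (3217 against 2958 within KD, 3051 against 2896 within NC), so the opposite order was not seen at that stage. What the deposited values of Gm11517 hold, and any part of it in the spread of Cbx1, was not tested.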
